A study of Mus musculus with 32 samples.

Results

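The genes described here are 10 mouse genes whose proteins build the growth cone or set the stability of its cytoskeleton: Gap43, Basp1, Marcks, Marcksl1, the stathmins Stmn1, Stmn2, Stmn3 and Stmn4, and the collapsin response mediator proteins Dpysl2 and Dpysl3. They were listed by symbol with earlier results of these data known, and all 10 were found among the 44081 genes with reads counted on 3′UTRs and among the 23453 genes counted on exons. Each gene was followed in the soma and the dendrites of the same 16 neurons, 32 libraries in all.

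The neurons were primary hippocampal cells of C57BL/6 mice, taken at embryonic day 18 and kept in culture for 15 days, and no allele or drug separated them. The soma and the dendrites of each cell were drawn into separate tubes, so a group here is a compartment and a neuron is the replicate. The labels do not tie neurons to animals or dishes, so the p-values measure the spread between these cells. RNA was amplified from the poly-A tail by the aRNA method, which copies RNA linearly with a viral polymerase, in 3 rounds for neurons 1 to 4 and in 2 rounds for the other 12. ERCC spike-ins, which are synthetic RNAs of known amount, were added at a 4000000-fold dilution to the tubes of 14 neurons and not to those of neurons 1 and 2. The dendrite tube holds processes cut from a living cell, so a low value can mean that little RNA was collected or that the transcript is sparse, and these cannot be told apart from reads alone.

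A growth cone advances while actin filaments push the membrane outward and microtubules follow. Gap43, Basp1 and the Marcks proteins sit on the inner face of the membrane, are substrates of protein kinase C or bind calmodulin, and control how actin is anchored there. Stathmins bind tubulin dimers and favour microtubule disassembly, while the Dpysl proteins, also called CRMPs, bind tubulin or actin and carry signals of guidance cues such as semaphorins. In the adult brain Gap43 is best known as an axonal protein, and its mRNA is known to be carried into neurites and to be stabilized by ELAV-family proteins that bind its 3′UTR.

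Because aRNA amplification starts at the poly-A tail, reads gather toward the 3′ end of a transcript, although not equally for each of these genes. The annotated ends of Gap43, Basp1, Stmn2 and Stmn3, the only members with reads in all 32 libraries, are shown with 30 bases around the polyadenylation signal, from GENCODE on GRCm38 (mm10), 5′ to 3′ on the strand of the gene, with the signal AATAAA in capitals. The windows lie at chr16:42248446-42248475 (minus), chr15:25363284-25363313 (minus), chr3:8561567-8561596 (plus) and chr2:181306462-181306491 (minus), all in 3′UTR exons.
Gap43: aatctgaatattAATAAAtcatgagagtaa
Basp1: tggtgcaacagtAATAAAgttaaacaatta
Stmn2: caagctgtgatgAATAAAgaattggagttc
Stmn3: gttggcaaccttAATAAAtctagtggcagt
AATAAA was found on the sense strand in the last 50 nt of the annotated 3′UTR for 8 of the 10 genes, against 62.4% of 20546 annotated 3′UTRs. Dpysl3 had the variant ATTAAA in that window, and Stmn4 had neither. The AU-rich pentamer ATTTA, searched on the sense strand of the last 500 nt, occurred in 7 of the 8 members with a 3′UTR that long, Gap43 included, against 59.3% of 13710 3′UTRs. The longer element TTATTTATT was in 0 of those 8, against 3.54%.

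Dendrite libraries held 646521 to 6954420 reads on 3′UTRs and soma libraries 925525 to 21169974, so a soma value usually rested on more reads than the dendrite value of the same cell. Mitochondrially encoded genes took a median of 13.5% of dendrite reads and 1.05% of soma reads. The summed markers of neurons had medians of 5458 CPM in dendrites and 6206 CPM in somas (CPM, counts per 1000000 reads after TMM scaling), while the summed markers of glia were lower but had higher medians in dendrites than in somas, at 33.1 and 13.1 CPM for astrocytes, 14.8 and 6.09 CPM for oligodendrocytes and 1.17 and 0.165 CPM for microglia. Their highest dendrite values were 663, 173 and 384 CPM, and the part of glial RNA in the dendrite values was not tested. Of the nuclear RNAs Malat1, Meg3 and Snhg11 the sum was 515 CPM in dendrites and 1761 CPM in somas at the median, and the part of soma material in the dendrite values was not tested. The dendrite libraries of neurons 15 and 16 stood apart, with 1570 and 2485 genes at 10 reads or more (median of dendrites 6053), ERCC shares of 17.1% and 7.55% (median 1.51%), and 4 and 3 of the 10 genes at 0 reads.

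Together the 10 genes took 0.196% to 1.32% of all 3′UTR reads in dendrites (median 0.626%) and 0.585% to 1.39% in somas (median 0.773%), and most of these reads came from a few of them. By reads, Stmn2 was the highest member in 12 of 16 dendrite and 9 of 16 soma libraries, with a median of 32.1% and 25.5% of the members' reads, followed by Basp1 (19.9% and 15.8%), Stmn3 (13.6% and 20.1%) and Gap43 (13.4% and 17.5%). Marcks and Stmn4 took 0.385% and 0.720% in dendrites at the median. These are shares of reads and not levels of transcript. Dividing exon reads by the summed exon length of the gene (RPKM, the CPM per 1000 bases of exon) put Stmn3, with 1136 nt of exon, above Stmn2, with 5602 nt, at medians of 838 and 541 RPKM in dendrites and 1142 and 440 RPKM in somas. Since reads gather at 3′ ends and need not grow with exon length, no order of transcript levels between the genes is drawn from either measure. Exon values of Dpysl3 are of little use, since its exon reads were only 5.77% and 5.99% of its 3′UTR reads at the median in dendrites and somas.

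Between compartments, 0 of the 10 genes passed the paired edgeR quasi-likelihood test on 3′UTR reads at an adjusted p of 0.05, where 6.53% of the 10880 genes tested did (5.71% higher in somas, 0.827% higher in dendrites). At an unadjusted p under 0.05, 3 members were lower in dendrites and 0 higher, and 26.7% of all genes were lower at that level. DESeq2, the other tool run, called 4 members lower in dendrites (Dpysl2, Gap43, Marcks and Stmn3) and none higher, but it called 46.2% of all genes lower and 4.26% higher. All log2 values of this kind are dendrite over soma, and they depend on the scale. The median gene stood at −1.49 after TMM scaling of 3′UTR reads, and the members' median was −0.79, with 8 of 10 genes above the median gene. On exon reads the medians were −1.28 and −0.50, with 9 of 10 above, and 0 members were called (3.62% of 9804 genes, 2.62% higher in somas and 1% higher in dendrites). Dpysl2 was lower at an unadjusted p under 0.05, as were 20.4% of genes. The place of the members beside the median gene depended on the fit. Without neuron as a block, 5 of 10 were below it on 3′UTR reads (medians −0.22 for all genes and −0.26 for members). The same fit on exon reads put 5 of 10 below it. With no filter beyond 1 read, 8 of 10 were below it on 3′UTR reads (−0.17 and −0.85). The members' median was −0.31 without neuron 15 and −0.36 without neuron 16, beside −1.05 for all genes.

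**Figure D1:**
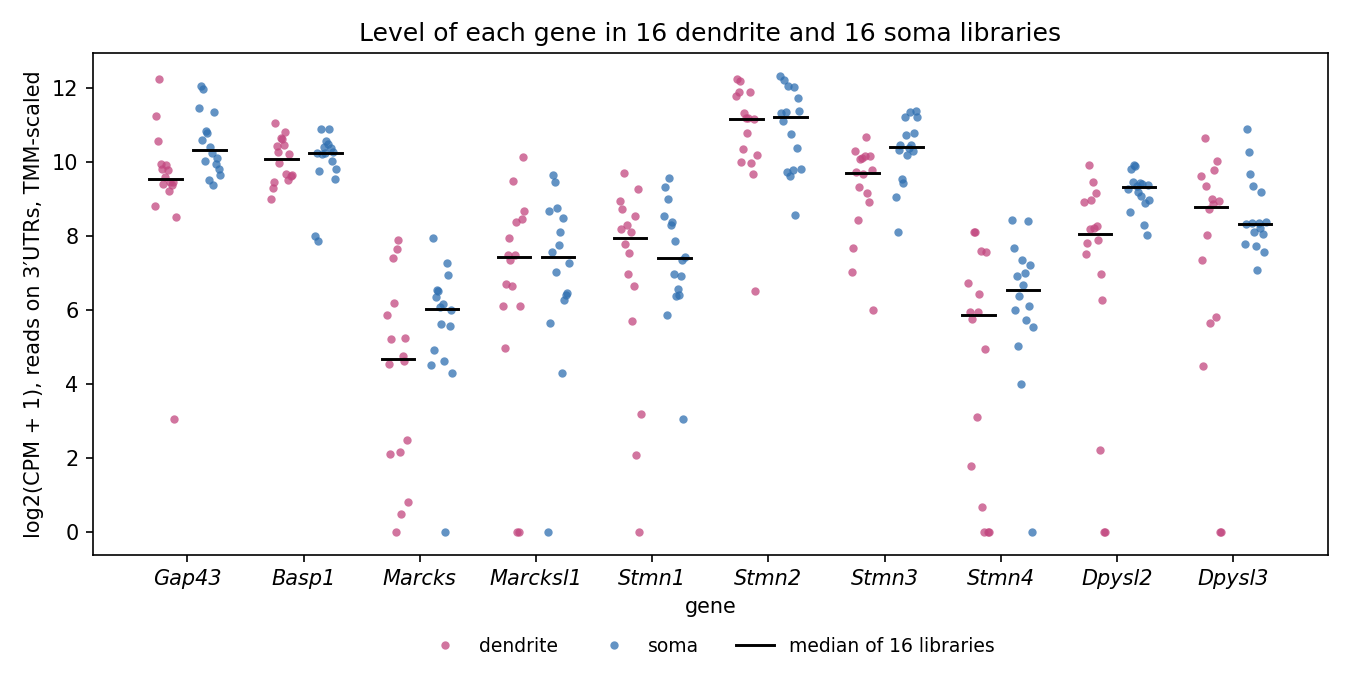
Level of each gene as log2(CPM + 1) of 3′UTR reads (y axis) in 16 dendrite (pink) and 16 soma (blue) libraries, with a black bar at the median. The compartments overlapped for all 10 genes, and the dendrite points of Marcks, Marcksl1, Stmn1, Stmn4, Dpysl2 and Dpysl3 reached down to 0.

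The membrane proteins Gap43 (chr16:42248442-42340651) and Basp1 (chr15:25363277-25413764) are relatives in function that bind calmodulin and gather at lipid-rich membrane. Gap43 ranged from 7.28 to 4836 CPM in dendrites with a median of 738, and from 667 to 4235 CPM in somas with a median of 1282. The groups overlapped, yet Gap43 was lower in the dendrites than in the soma in 14 of 16 neurons, which 5.26% of genes tested and 4.22% of the 805 with reads in all libraries reached. The count was 11 of 16 on exon reads, 13 of 14 on the ERCC scale and 3 of 16 once dendrites were rescaled to the median gene. That rescaling used 1 factor for all neurons. Gap43 stood above the median gene of the same neuron in only 7 of 16. Its fitted difference was −0.92 (SE 0.43, edgeR adjusted p = 0.145), and −0.46 without neuron 15, whose dendrite value, the lowest, came from 11 reads. It was −0.54 without neuron 1 and −0.57 without neuron 12. Basp1 ranged from 514 to 2115 CPM in dendrites with a median of 1090, and from 230 to 1903 CPM in somas with a median of 1209. Dendrites were higher in 7 neurons and somas in 9. Somas were higher in 3 of 16 on exon reads, 13 of 14 on the ERCC scale and 0 of 16 once dendrites were rescaled. Basp1 stood above the median gene of the same neuron in 13 of 16. The fitted difference was 0.06 (SE 0.39, edgeR adjusted p = 0.928), and unlike Gap43 it stayed at 784 CPM in the dendrites of neuron 15 and 799 CPM in those of neuron 16.

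The difference between these genes held up against the spread between neurons. Within a neuron the ratio of 2 genes does not depend on how the libraries are scaled, apart from the pseudocount of 1 CPM, so 9 pairs of family members, chosen with earlier results of these data known, were compared by the change of their log2 ratio from soma to dendrites (exact two-sided sign-flip permutation test, adjusted over the 9 pairs). Gap43 over Basp1 had a median log2 ratio of 0.09 in somas and −0.52 in dendrites. The change was −1.18 ± 1.77 (SD, n = 16 neurons, exact sign-flip adjusted p = 0.00577), and the ratio was lower in dendrites in 14 of 16 neurons. With neuron 15 left out the change was −0.80 ± 0.97 (SD, n = 15, exact sign-flip adjusted p = 0.00577), and on exon reads it was −1.22 ± 1.84 (SD, n = 16, exact sign-flip adjusted p = 0.00467). Neurons 2 and 5 were the exceptions, with changes of 0.14 and 0.37. In the 12 neurons of 2 rounds the change was −1.05 ± 1.87 and in the 4 neurons of 3 rounds −1.55 ± 1.59.

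The ratio itself differed with the rounds of amplification, which was seen after the values were known and was not tested. In somas, log2 Gap43 over Basp1 was 1.81 to 3.48 in the neurons of 3 rounds and −1.51 to 0.97 in those of 2 rounds, without overlap. Soma Gap43 was 1539 to 4235 CPM against 667 to 2596 CPM, and soma Basp1 230 to 1206 CPM against 749 to 1903 CPM. The neurons of 3 rounds include both neurons without spike-in, and the sample titles of the sets of neurons start with different letters, so rounds and any other difference between these sets cannot be told apart.

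Marcks (chr10:37133375-37138920) and Marcksl1 (chr4:129513581-129515985) encode myristoylated protein kinase C substrates that bind actin and membrane lipid. Marcks had the lowest median CPM of the 10 genes, from 0 to 238 CPM with a median of 24.6, against 0 to 245 CPM with a median of 64.3 in somas, and only 10 of 16 dendrite libraries had 10 reads. Its fitted difference was −1.38 (SE 1.06, edgeR adjusted p = 0.356), and ran from −1.65 to −0.87 with single neurons left out. Marcksl1 was nearly level, from 0 to 1128 CPM with a median of 171 in dendrites and 0 to 798 CPM with a median of 170 in somas (−0.19, SE 0.87, edgeR adjusted p = 0.892). Its highest dendrite value was in neuron 15, where 6 of the other members were at their lowest. The change of the Marcks over Marcksl1 ratio, −1.01 ± 3.85 (SD, n = 16, exact sign-flip adjusted p = 0.395), had a 95% interval of −3.06 to 1.04 that leaves both directions. With single neurons left out this change ran from −1.47 to −0.59.

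Among the stathmins, Stmn1 (chr4:134468320-134473843) is the cytosolic form, while Stmn2, Stmn3 and Stmn4 carry a palmitoylated end that holds them on Golgi and vesicle membranes. Stmn2 (chr3:8509360-8561606), also known as SCG10, ranged from 90.0 to 4825 CPM in dendrites with a median of 2307, and from 378 to 5144 CPM in somas with a median of 2370. Dendrites and somas were each higher in 8 neurons, and the fitted difference was 0.01 (SE 0.39, edgeR adjusted p = 0.990). Somas were higher in 6 of 16 on exon reads, 11 of 14 on the ERCC scale and 1 of 16 once dendrites were rescaled. Stmn3 (chr2:181306459-181314500), also known as SCLIP, ranged from 63.0 to 1646 CPM in dendrites with a median of 832, and from 273 to 2683 CPM in somas with a median of 1366.
The ranges overlapped, but within neurons Stmn3 was lower in dendrites in all 16 on TMM-scaled 3′UTR reads, as were 0.221% of genes tested and 0.373% of those with reads in all libraries, in 13 of 16 on exon reads, in 13 of 14 on the ERCC scale, and in 3 of 16 once dendrites were rescaled to the median gene. Stmn3 stood above the median gene of the same neuron in only 5 of 16. Its fitted difference was −1.01 (SE 0.42, edgeR adjusted p = 0.108), and −0.57 without neuron 16 and −0.66 without neuron 1.

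Stmn1 had 0 to 834 CPM in dendrites with a median of 246 and 7.25 to 753 CPM in somas with a median of 167, and dendrites were higher in 9 neurons. The fitted difference was −0.42 (SE 0.72, edgeR adjusted p = 0.689), opposite in sign to the medians. Stmn4 (chr14:66344296-66361680), also known as RB3, had the lowest median CPM of the stathmins, from 0 to 275 CPM with a median of 56.6 in dendrites and 0 to 341 CPM with a median of 91.6 in somas. It was without reads in 3 dendrite libraries and 1 soma library, and its fitted difference was −1.50 (SE 1.01, edgeR adjusted p = 0.296). With single neurons left out that difference ran from −1.79 to −0.93.

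None of the 6 stathmin pairs passed the adjustment over the 9 pairs. The nearest was Stmn2 over Stmn3, whose ratio was higher in dendrites in 14 of 16 neurons by 1.00 ± 1.78 (SD, n = 16, exact sign-flip p = 0.0332, adjusted p = 0.150). The 2 exceptions were neuron 5 (−0.25) and neuron 15 (−3.27). Without neuron 15 the change was 1.28 ± 1.42 (SD, n = 15, exact sign-flip adjusted p = 0.00165), and without neurons 15 and 16, a choice made after seeing the data, it was 0.97 ± 0.81 (SD, n = 14, exact sign-flip adjusted p = 0.00330). So this call turns on the dendrite library of neuron 15, which had 136 Stmn2 reads beside 1338 Stmn3 reads, while its soma had 24468 and 24780. For the other stathmin pairs the 95% intervals of the change all held 0, from −1.02 to 3.20 for Stmn1 over Stmn4 to −0.35 to 1.55 for Stmn1 over Stmn3.

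**Figure D2:**
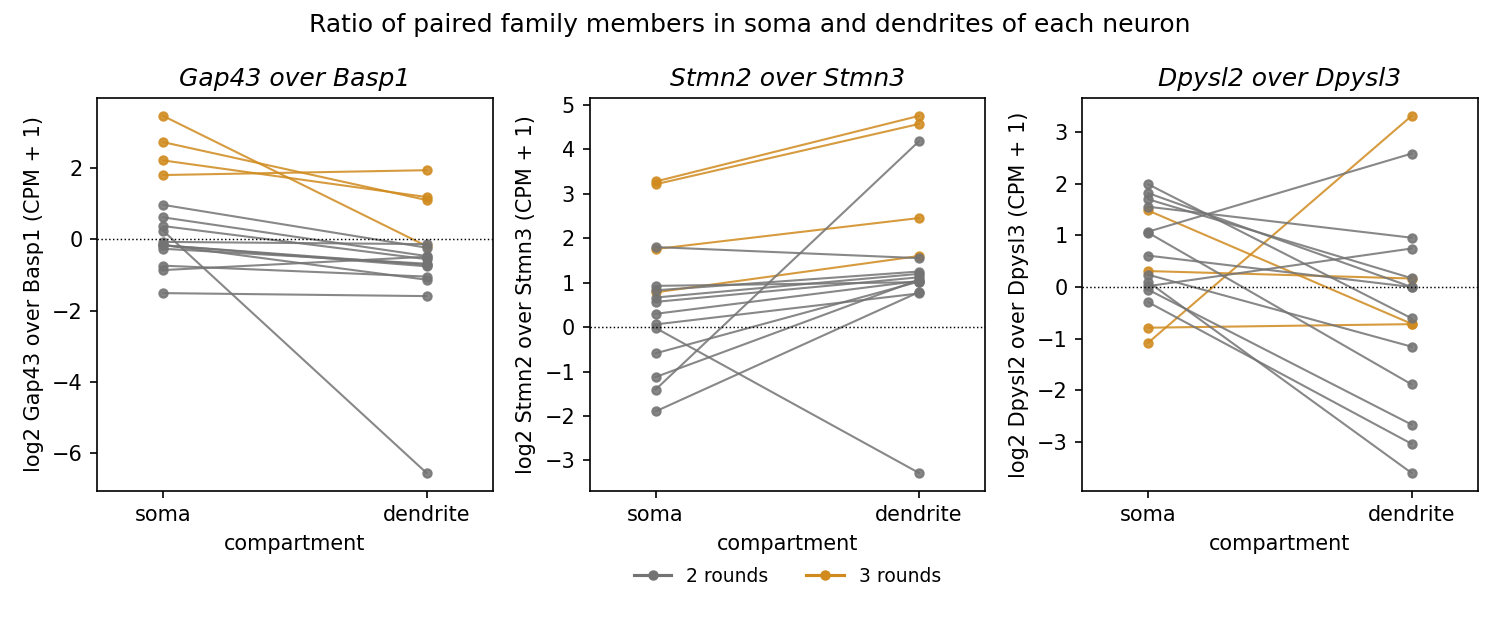
Log2 ratio of CPM + 1 of the genes of 3 pairs (y axes) in the soma and the dendrites of each neuron, joined by lines (grey, 2 rounds; orange, 3 rounds). Gap43 over Basp1 went down from soma to dendrites in 14 of 16 neurons and Stmn2 over Stmn3 went up in 14 of 16, with neuron 15 at the bottom of both dendrite columns.

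Dpysl2 (CRMP2, chr14:66802864-66868688) promotes microtubule assembly in growing neurites, and Dpysl3 (CRMP4, chr18:43320984-43438286) also acts on actin bundles. Dpysl2 ranged from 0 to 974 CPM in dendrites with a median of 265, and from 257 to 972 CPM in somas with a median of 637. It was lower in dendrites in 14 of 16 neurons, 12 of 16 on exon reads, all 14 on the ERCC scale and 8 of 16 once dendrites were rescaled, with the most negative fitted difference of the 10 genes at −1.69 (SE 0.68, edgeR adjusted p = 0.0970), 0.20 below the median gene. Dpysl2 stood above the median gene of the same neuron in 5 of 16. Neurons 15 and 16 had 0 Dpysl2 reads in dendrites beside 6129 and 5511 in the soma. Dpysl3 ranged from 0 to 1605 CPM in dendrites with a median of 443, and from 134 to 1904 CPM in somas with a median of 322. Dendrites were higher in 7 neurons, and the fitted difference was −0.66 (SE 0.75, edgeR adjusted p = 0.538), with 0 reads again in the dendrites of neurons 15 and 16. With single neurons left out the fitted difference of Dpysl3 ran from −0.87 to −0.15.

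The Dpysl2 over Dpysl3 ratio was lower in dendrites in 12 of 16 neurons, by −1.01 ± 2.04 (SD, n = 16, exact sign-flip adjusted p = 0.201, 95% interval −2.10 to 0.08). In the 12 neurons of 2 rounds it was −1.53 ± 1.56 (SD, exact sign-flip adjusted p = 0.0439), and without neuron 3, where it rose by 4.41, it was −1.37 ± 1.50 (SD, n = 15, exact sign-flip adjusted p = 0.0209). The change in the 4 neurons of 3 rounds was 0.53 ± 2.78, and the difference between the sets of neurons was not tested for this pair.

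The rounds of amplification were tested gene by gene as an interaction with compartment. None of the 10 genes was called (edgeR adjusted p of 1 for each), nor was any of the 10880 genes (0%), with 288 genes and 0 members at an unadjusted p under 0.05. The interaction estimates ran from −1.09 (SE 2.19) for Stmn4 to 1.55 (SE 1.60) for Stmn1, so differences of 2-fold and more between the sets of neurons were within their error.

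Scaled to the ERCC spike-ins, which puts the reads on a scale of RNA per tube, the picture shifted down for nearly every gene. Dendrite tubes held 0.0368 to 1.91 times the exon reads per ERCC read of the soma tube of the same neuron (median 0.209, n = 14), and neuron 5 alone was above 1. The median gene stood at −4.15 and 64.4% of 9513 genes were called lower in dendrites. Of the members, 9 were called lower and Dpysl3 was not (−3.24, SE 1.78, edgeR adjusted p = 0.0933). This scale rests on exon reads, whose values are of little use for Dpysl3. Basp1 (−2.40, SE 0.81, edgeR adjusted p = 0.00965) and Stmn2 (−2.37, SE 0.74, edgeR adjusted p = 0.00573) were the least negative, and Dpysl2 (−4.05, SE 0.96, edgeR adjusted p = 7.48e-04) the most. All 10 genes were above the median gene on this scale. When dendrite libraries were instead multiplied by 1 factor to bring the median gene close to 0, Basp1 (1.55) and Stmn2 (1.50) were called higher in dendrites, among 5.04% of genes, and Gap43, Stmn1, Stmn3, Marcks, Marcksl1 and Dpysl3 also took positive values that were not called. A direction for any of the genes in the last sentence therefore holds for a stated scale only. Dpysl2 and Stmn4 were below 0 on every scale, but only by −0.20 (SE 0.68) and −0.022 (SE 0.98) after the rescaling, where neither was called. Basp1 and Stmn2 had the highest values of the 10 genes on TMM-scaled 3′UTR reads, on TMM-scaled exon reads and on the ERCC scale, which share the same libraries.

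**Figure D3:**
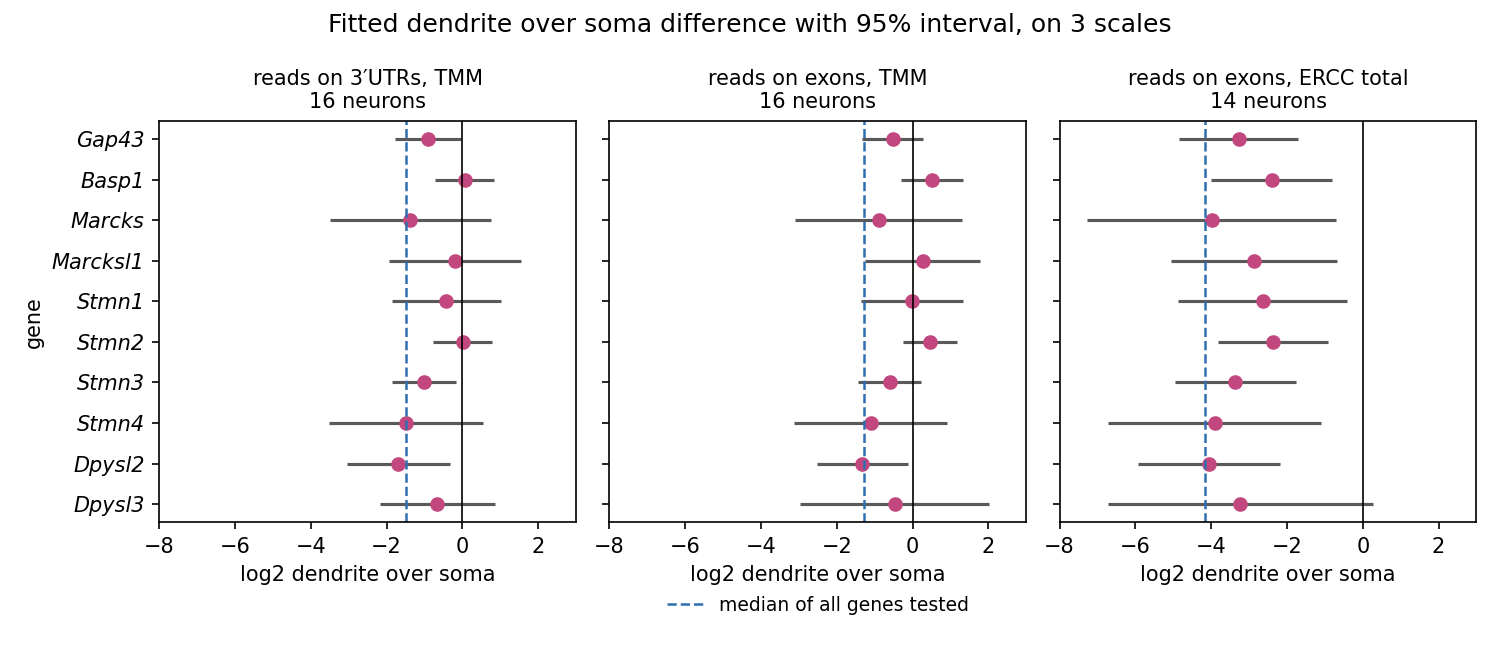
Fitted log2 dendrite over soma (x axes) with 95% intervals for each gene on 3 scales, the dashed line marking the median of all genes tested (−1.49, −1.28 and −4.15). All genes but Dpysl2 and Stmn4 lie to the right of that line on every scale, with Basp1 and Stmn2 farthest to the right. Dpysl2 and Stmn4 lie close to it, as does Marcks on 3′UTR reads and on the ERCC scale.

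Seen cell by cell, the dendritic read fraction is the dendrite share of a gene's TMM-scaled reads in a neuron, and its variance over neurons describes how evenly a transcript is split. Stmn3 (0.343 ± 0.120, SD, n = 16) never passed 0.494, and Basp1 (0.510 ± 0.116) stayed between 0.341 and 0.755. Their variances were smaller than those of all but 1.02% and 0.906% of 10381 genes, and Gap43 (0.361 ± 0.146) was next with 2.64%. Stmn2 (0.501 ± 0.189) spanned 0.0329 to 0.747. Marcksl1 (0.479 ± 0.314), Marcks (0.325 ± 0.291, n = 15), Dpysl3 (0.424 ± 0.286), Stmn1 (0.444 ± 0.279) and Stmn4 (0.335 ± 0.279, n = 15) varied more, each from 0 in at least 1 neuron to over 0.78. The median variance of all genes was 0.110. On exon reads scaled by ERCC, chosen after seeing the data, the order changed. There Stmn3 (0.139 ± 0.144, n = 14) reached 0.554 and Basp1 (0.208 ± 0.175, n = 14) spanned 0.0334 to 0.665, while Dpysl2 (0.102 ± 0.115, n = 14) had the smallest variance. Its fractions lay near 0, with a median of 0.0773 and 0 in neurons 15 and 16. This small variance is therefore not read as an even split. On TMM-scaled 3′UTR reads Dpysl2 had 0.280 ± 0.176. The 5 variable members also had lower median levels in dendrites than Gap43, Basp1, Stmn2 and Stmn3, and the part of read depth in this was not tested.

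**Figure D4:**
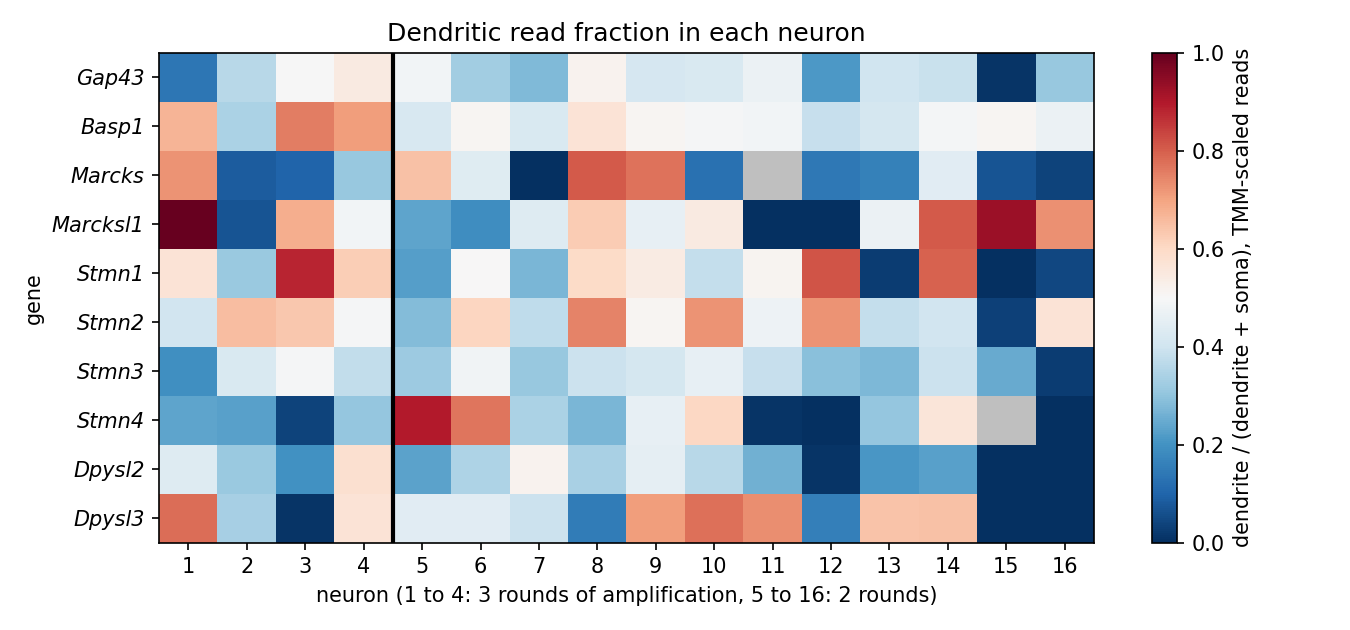
Dendritic read fraction of each gene (rows) in each neuron (columns), from 0 (blue, all reads in the soma) to 1 (red, all in dendrites), with grey where a gene had under 10 scaled reads. The rows of Basp1, Gap43 and Stmn3 are more even than those of Marcksl1, Stmn1 and Dpysl3. Still, Gap43 is at 0.00813 in neuron 15 and Stmn3 at 0.0261 in neuron 16. Dpysl2 and Dpysl3 are at 0 in neurons 15 and 16.

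Over neurons, the pairwise Pearson r of their per-neuron log2 differences ran from −0.43 (Marcksl1 with Stmn2) to 0.80, with a median of 0.27 and 34 of 45 values above 0. These are descriptions over 16 neurons that share libraries, since a scaling error in 1 library moves every gene of that neuron. Among 801 other genes with reads in all libraries, those most like Gap43 were Pafah1b1 (r = 0.889), Mllt11 (0.887) and Ywhab (0.878), and those most like Stmn2 were Slc25a23 (0.876), Gng3 (0.858) and Ndufb5 (0.858).

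The 3′ ends were examined on features made of the last 500 nt of each annotated end. Gap43, Basp1, Marcks, Marcksl1, Stmn3 and Dpysl2 have 1 such feature and could not be tested. Dpysl3, Stmn1, Stmn2 and Stmn4 could, and none passed the test of the split between its top 2 ends (exact signed-rank test, adjusted p of 1 for each, unadjusted p of 0.583, 0.831, 0.670 and 0.492), as for all 3522 genes tested (0% called). At an unadjusted p under 0.1, 0 of the 4 and 8.4% of all genes passed. In Stmn2 the second feature took 2.36% of the end reads in dendrites and 5.63% in somas, a difference of −3.27 ± 17.6 percentage points (SD, n = 16). In Dpysl3 the third feature took 8.17% and 3.01% (difference 5.15 ± 18.8 points, SD, n = 14). The deposited features carry no coordinates, so which end is nearer to the coding sequence was not assigned.

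Where the reads fell differed between genes. The end features held nearly all 3′UTR reads of Gap43 (median 100.0% in dendrites and 99.6% in somas), Marcksl1 and Stmn3, 83.4% and 80.3% of those of Basp1, and only 39.9% and 41.6% of those of Stmn2. For Marcks they held 0% in dendrites and 3.91% in somas at the median, in 10 and 15 libraries with 10 reads or more, while single libraries reached 100% in dendrites and 45.8% in somas. Most Marcks reads in most libraries were thus counted outside its end feature.

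Other genes of growth cones and neurite growth were summarized from a list of 33, which held no member. All 33 were tested and 0 were called in either direction, where 6.53% of all genes were. At an unadjusted p under 0.05, 7 were lower in dendrites, as were 26.7% of all genes. The median log2 difference of the 33 was −0.93, and 23 were above the median gene. Snap25, a synaptic and growth cone fusion protein, was 1198 CPM in dendrites and 2712 CPM in somas at the median (−1.22, SE 0.46, edgeR adjusted p = 0.0808), and lower in dendrites in 15 of 16 neurons. Of all genes tested, 5.26% were lower in at least 14 of 16. Crmp1, the Dpysl relative, was at 137 and 388 CPM (−1.74, SE 0.67, edgeR adjusted p = 0.0867), and Vasp, which extends actin filaments, at 0 and 11.0 CPM (−3.98, SE 1.42, edgeR adjusted p = 0.0708). Among estimates above 0, the smallest p-values were those of Palm (0.70, SE 0.99, edgeR adjusted p = 0.627), Sox11 (0.37, SE 1.05, edgeR adjusted p = 0.822) and Nrn1 (0.10, SE 1.03, edgeR adjusted p = 0.953).

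Of 23 kinases, phosphatases and lipid-modifying enzymes that act on these proteins, 21 were tested and 0 were called, and the median was −0.96. At an unadjusted p under 0.05, 3 were lower in dendrites, as were 26.7% of all genes. Prkcb, a protein kinase C, had a median of 203 CPM in dendrites and 107 CPM in somas (0.55, SE 1.02, edgeR adjusted p = 0.716). The palmitoyltransferase Zdhhc17 was at 0 and 62.4 CPM (−5.24, SE 1.83, edgeR adjusted p = 0.0661). The phosphatase subunit genes Ppp3cb (−3.33, SE 1.22) and Ppp2ca (−1.30, SE 0.49) had edgeR adjusted p-values of 0.0756 and 0.0816, and Ppp2ca was lower in dendrites in 15 of 16 neurons. At least 14 of 16 was reached by 5.26% of all genes tested. Of 5 RNA-binding proteins known to bind Gap43 mRNA, 4 were tested and 0 called, with a median of −0.26. Elavl4, also known as HuD, was at 90.5 CPM in dendrites and 133 CPM in somas (−1.83, SE 1.12, edgeR adjusted p = 0.250). Elavl1 (−0.32, SE 1.13) and Khsrp (−0.21, SE 1.05) were well within their errors. Igf2bp1 (1.69, SE 1.52, with medians under 1 CPM in both compartments) was near its error.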

How the data were processed

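The soma and dendrites of 16 single neurons were sequenced after aRNA amplification (32 samples). Per the labels and the study's methods, the authors removed adapters and poly-A stretches, used STAR 2.4.0 for alignment to mm10 and VERSE for counting of unique alignments. The deposited files hold raw counts, without normalization or molecular identifiers: per gene on the union of 3′UTR regions, per 3′ end on features of 500 nt, and per gene on exons with 92 ERCC spike-ins (exon annotation not given in the sources used here). Counting error was therefore not used as a measure of precision, and errors are spreads between neurons.

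From these counts, compartments were compared with edgeR 4.0.16 in R 4.3.3 (TMM, robust quasi-likelihood fit, neuron as a block) on genes detected with 1 read or more in 16 or more samples, with Benjamini-Hochberg adjustment over all genes tested and a threshold of 0.05. DESeq2 1.42.0, the tool of the study, was an alternative. Confidence intervals are at 95%, and those of the pair changes use the t distribution. Pairs of genes were compared on log2(CPM + 1) with exact sign-flip permutation tests over all 65536 sign patterns, and 3′ ends with exact signed-rank tests in genes with at least 10 reads in both compartments of at least 5 neurons, in Python 3.11.15 with SciPy 1.17.1, NumPy 2.4.6 and pandas 2.3.3. Positions, exon lengths and sequences came from GENCODE (GRCm38). The tests were first tested on simulated data.

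The pairing comes from the cells. After removal of compartment means, the correlation over genes between dendrites and soma was 0.0886 ± 0.0771 (SD, n = 16) within neurons and −0.00561 ± 0.0522 (SD, n = 240) between neurons. In each compartment, 0 pairs of libraries were identical. The members, the lists and the pairs were chosen with earlier results of these data known. All members are named, and of each list at most the 3 lowest p-values per direction. Likeness used the 3 genes with the highest Pearson r. Alternatives covered the tool, scaling, filters, exon reads, block, rounds, read numbers, pseudocounts and each neuron left out.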

Additional observations from a re-analysis of the deposited data

How the results depend on the processing

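All 16 fits that left out a neuron kept 0 members called on 3′UTR reads and 0 on exon reads, as did a filter of 10 reads in 16 samples. Other settings were run on 3′UTR reads only and also kept 0 called. They were no filter, equal read numbers, median-of-ratios factors, library sizes without mitochondrial genes and either set of neurons alone. Members called on 3′UTR reads became 4 with DESeq2 and 2 with dendrites rescaled to the median gene, and 9 on exon reads with ERCC totals. Without the neuron block 0 members were called on either kind of reads, so the pairing changed no call, but it moved the median gene on 3′UTR reads from −1.49 to −0.22. Pairs that passed became 2 in the neurons of 2 rounds and 2 without neurons 15 and 16 (chosen after seeing the data), and were 1 to 2 with single neurons left out.

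Signs of some estimates changed, not all of them near 0, and none of the changed estimates was called unless stated. With DESeq2 and with median-of-ratios factors, Basp1 was −0.19 and Stmn2 −0.27. With dendrites rescaled by 1 factor, which moved all genes up, Dpysl3 was 0.83, Gap43 0.58, Marcks 0.10, Marcksl1 1.30, Stmn1 1.07 and Stmn3 0.48. With no filter Basp1 was −0.081 and Stmn2 −0.084, and with 10 reads in 16 samples Marcksl1 was 0.17. Without the block, Basp1 was −0.0036, Marcksl1 0.039, Stmn1 0.090 and Stmn2 −0.048 on 3′UTR reads, and Dpysl3 0.18 and Stmn1 0.41 on exon reads. In neurons of 2 rounds Basp1 was −0.15 and Stmn2 −0.093, in those of 3 rounds Marcksl1 0.80 and Stmn1 0.82, and at equal read numbers Marcksl1 0.30. Without neurons 15 and 16, Basp1 was −0.0016 on 3′UTR reads, and Marcksl1 −0.40 and Stmn1 0.26 on exon reads. On the ERCC scale Basp1 (−2.40), Marcksl1 (−2.87) and Stmn2 (−2.37) were called lower. The rounds interaction of Dpysl3 was 0.53 on exon reads. With single neurons left out, 3′UTR values ran from −0.044 to 0.42 for Basp1, −0.33 to 0.40 for Marcksl1, −0.65 to 0.064 for Stmn1 and −0.10 to 0.46 for Stmn2, and exon values from −0.32 to 0.46 for Marcksl1 and −0.37 to 0.12 for Stmn1. The causes were not tested. Marcks and Stmn4 reached 10 reads in only 10 dendrite libraries each, and their fitted differences had the largest SEs of the 10 genes on 3′UTR reads, 1.06 and 1.01.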
